A study of Mus musculus with 3 samples.

Results

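In primary mouse hepatocytes, 19586 of the 87021 RBFOX2 crosslink clusters lay in introns of protein-coding genes at a middle distance from exons, 501 to 5000 nt from the nearest coding exon. They made up 22.5% of all clusters (Wilson 95% interval 22.2 to 22.8%) and 42.7% (42.3 to 43.2%) of the 45841 clusters that lay in coding genes outside every annotated exon. A cluster was counted as a member by its midpoint, which had to lie on the gene's own strand, in no annotated exon of any transcript, and in that range from the nearest exon of the gene's protein-coding transcripts in GENCODE M21 (GRCm38). Of the other intronic clusters, 11078 lay within 500 nt of an exon and 15177 beyond 5000 nt. The choice used position alone, so counts, side, intron and sequence were not part of it.

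The data came from eiCLIP, in which UV light fixes a protein to the RNA it touches, the protein is pulled down with an antibody, and the position where reverse transcription stopped is read by sequencing. There was a single group of 3 libraries, all of RNA bound to RBFOX2 in hepatocytes isolated from livers of C57BL6/J mice, a wild-type inbred strain. The labels give 3 livers and 3 cell pellets for each library, while the methods describe separate cultures that each came from a pair of mice, and these accounts differ. No age is tied to these cultures in the sources used here. The authors pooled the libraries before they called clusters, so no value below has a spread between libraries, no test across libraries was possible, and the intervals cover counting error only. The count of a cluster is its number of cDNA starts after removal of PCR duplicates, with a minimum of 10 and no subtraction of an input. The members held 485592 of 2850863 counts (17.03%). All 10 hepatocyte markers examined had clusters somewhere in the gene. Of the markers of other liver cells, clusters were found in 2 of 6 for Kupffer cells and macrophages, 1 of 6 for endothelial cells, 1 of 6 for stellate cells and 0 of 5 for cholangiocytes. In all, 9191 coding genes had a cluster. Their share of all coding genes was not computed, so these marker counts stand without a background.

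RBFOX proteins are RNA-binding splicing regulators that recognise the motif GCAUG in introns. They are best known for acting close to alternative exons, where binding downstream of an exon tends to favour its inclusion and binding upstream its skipping. They can also act from sites farther inside introns, which may be brought near an exon by RNA folding or by other bound proteins. The distance range examined here lies between the well studied flanks of exons and the deep interior of long introns.

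The motif could be read for few of the members, because a sequence was at hand only where an annotated exon of a gene on the other strand or an annotated promoter window covered the place. Windows of the cluster with 50 nt on each side were complete for 131 members in 100 genes, of which 119 lay opposite an annotated gene. This subset lies opposite exons or beside promoters and does not stand for the other members. GCATG, the DNA form of the motif, was searched on the cluster's strand. Shown first are 6 members with high counts among those with the motif, as 29 bases with GCATG in capitals.
Elk4: tcgagctgctttGCATGgctaaaacagaa
Atp2a2: aaatatggtagtGCATGctataattgtaa
Rassf1: aatagacgctcaGCATGcacagagctcgg
Pigb: ttcgttcattcaGCATGcacacaggatcg
Fat1: gtctgagtgaagGCATGtgcattctttga
Klc1: tgtagaacacttGCATGcaggaggcccta

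These stretches are written 5′ to 3′ on the cluster's strand and come from GENCODE transcripts placed on GRCm38. In Atp2a2, the calcium pump of the endoplasmic reticulum, the stretch lay at chr5:122497470-122497498 on the minus strand, in intron 3, and its motif began 10 nt upstream of the 5′ end of a cluster of 45 counts, 3263 nt from the exon upstream. In Klc1, a kinesin light chain, it lay at chr12:111803337-111803365 on the plus strand in intron 14, with the motif 9 nt upstream of a cluster of 27 counts. In Pigb, an enzyme of GPI anchor synthesis, it lay at chr9:73010078-73010106 on the minus strand in the only intron of its transcript, with the motif 4 nt upstream of a cluster of 32 counts. In 5 of the 6 the motif began within 11 nt upstream of the cluster's 5′ end. Elk4 (chr1:132028616-132028644, plus strand, 70 counts) and the atypical cadherin Fat1 (chr8:45019369-45019397, plus strand, intron 9, 31 counts) belonged to these. The exception was Rassf1 (chr9:107560403-107560431, plus strand, intron 5, 42 counts), where the motif nearest to the 5′ end began 60 nt downstream of it, inside a cluster 198 nt wide. Further members with lower counts had the nearest motif farther off. It began 18 nt upstream of the 5′ end in Mprip, and 61, 57 and 51 nt downstream in Elmsan1, Lrp8 and Pcx. The closeness in the members shown therefore did not extend to these. The Elk4 member was 1 of 84 that lay inside a gene but in no intron of a single coding transcript.

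Other members with high counts had no GCATG in their windows. The first 29 bases from the cluster's 5′ end are shown for 3 of them, since they stood among the highest counts of all members with sequence.
Sorbs2: ctctgagtgtgtatgtttgaacatgaatg
Foxo3: aggaggggaggaaaggagggaggggaggg
Acot12: aaattgactttcgagtttgtttggaggat

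The Sorbs2 stretch (chr8:45742610-45742638, plus strand, intron 4) began a cluster of 126 counts and 34 nt. That of Foxo3 (chr10:42274005-42274033, minus strand, intron 2, read from a RefSeq promoter window) began a cluster of 68 counts and 127 nt, and that of Acot12 (chr13:91744774-91744802, plus strand, intron 1) a cluster of 50 counts and 20 nt, past whose end the stretch runs. Over all 131 windows, 33 held GCATG, or 25.2% (Wilson 95% interval 18.5 to 33.3%). Windows of the same length moved by 500 nt along the same intron, where they met no other cluster and had sequence, held it in 12 of 122 (9.84%, 5.72 to 16.4%). The reverse complement CATGC, which shares the bases CATG with the motif, was in 17 of the member windows (13.0%, 8.26 to 19.8%) and in 24 of the displaced ones (19.7%, 13.6 to 27.6%). At or above the members' median count and below it, the share with GCATG was 22.2% (12.5 to 36.3%) of 45 windows and 26.7% (18.5 to 37.0%) of 86, and these intervals overlap widely. With displacement by 1000 nt the comparison share was 16.0% (9.40 to 25.9%) of 75 windows, whose interval overlaps that of the members. A heptamer resembling the start of the library adaptor stood 6 to 17 nt downstream of the 5′ end in 8 of 175 members with sequence there (4.57%, 2.33 to 8.76%). Displaced windows were not searched for it, so this share has no comparison beside it.

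Measured per length of intron, the members were sparser than the clusters beside exons and denser than those deep in introns. In the 9191 coding genes with at least 1 cluster, the range from 501 to 5000 nt offered 227.1 Mb of intron and held 86.3 members per Mb (exact Poisson 95% interval 85.1 to 87.5). Within 500 nt the density was 134.1 per Mb (131.6 to 136.6), and beyond 5000 nt it was 43.1 per Mb (42.4 to 43.8), so that members were 0.643 times as dense as the first and 2.002 times as dense as the second. Much of this order lay between genes. When each gene kept its own number of intronic clusters and these were spread over its introns by length, 20390 members came out, and the observed number was 0.961 times that. The corresponding ratios were 1.10 within 500 nt and 0.984 beyond 5000 nt.

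The level on the other strand gives a measure of clusters that do not follow the annotated transcript. Opposite to the same intron range, where no gene was annotated on that strand, 789 clusters lay on 216.5 Mb, or 3.65 per Mb (exact Poisson 95% interval 3.40 to 3.91). The members were 23.7 times as dense. Applied to the whole range, the opposite-strand density comes to 828 clusters, or 4.23% of the number of members. Those opposite-strand clusters had a median width of 5 nt, and 53.9% of them were 5 nt wide or narrower, against 23 nt and 22.6% (22.0 to 23.2%) for the members.

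**Figure D1:**
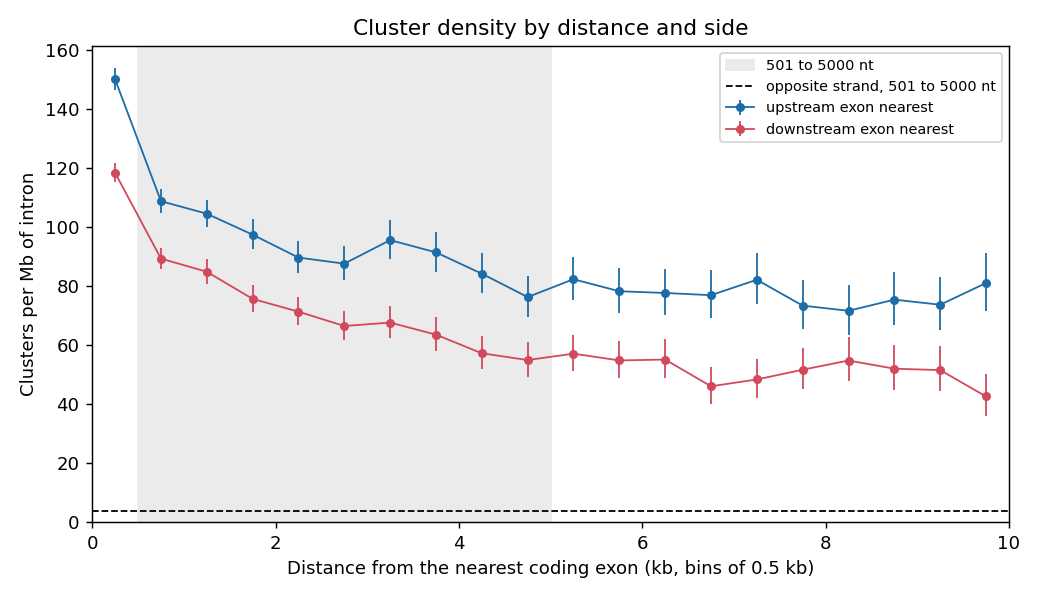
Intronic clusters per Mb of intron against the distance from the nearest coding exon in bins of 0.5 kb, for positions nearest to the exon upstream or downstream of them, in coding genes with a cluster. Bars are exact Poisson 95% intervals, the grey band marks 501 to 5000 nt, and the dashed line is the density on the opposite strand, 3.65 per Mb. The line for the upstream exon lies above the other in every bin.

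Within the range the density was lower at greater distance, and it showed no break at either limit. It was 99.0 per Mb (exact Poisson 95% interval 96.4 to 101.6) from 501 to 1000 nt, 91.1 (88.9 to 93.4) from 1001 to 2000 nt and 78.9 (76.3 to 81.6) from 2001 to 3000 nt. From 3001 to 4000 nt it was 79.7 (76.7 to 82.8), which the interval of the preceding bin contains, and from 4001 to 5000 nt it was 68.3 (65.2 to 71.5). Just inside the lower limit, at 501 to 600 nt, 1284 members gave 101.0 per Mb, and just outside, at 401 to 500 nt, 1387 clusters gave 100.5 per Mb. At the upper limit the last 100 nt inside held 150 members (61.0 per Mb) and the first 100 nt outside held 171 clusters (70.7 per Mb), and the intervals of these strips (51.7 to 71.6 and 60.5 to 82.2) overlap. Median counts in these 4 strips were 17, 17, 15 and 16.

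More members lay in the first part of an intron than in the last. The exon upstream was the nearer for 10914 members, or 55.7% (Wilson 95% interval 55.0 to 56.4%), while that side offered 49.4% of the eligible intron when genes were weighted by their members. Per Mb this was 97.2 against 75.6 members. Of the genes, 2594 had more members on the upstream side, 1873 more on the downstream side and 654 equally many. The mean over genes was 55.3%, so that genes with many members did not set the value. Within the range the gap between the sides was wider at its far end, with 108.9 against 89.4 members per Mb from 501 to 1000 nt and 80.5 against 56.2 from 4001 to 5000 nt. The same side was also the denser within 500 nt, with 217.8 and 172.9 per Mb at 1 to 100 nt and 108.2 and 93.1 at 401 to 500 nt, so the difference was not particular to this range.

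The upstream share exceeded that of eligible intron in most kinds of intron, but not detectably in short ones. In first introns it reached 59.2% (Wilson 95% interval 57.8 to 60.5%) against 49.5% of eligible intron, and in later introns 54.3% (53.5 to 55.1%) against 49.4%. In introns over 5000 nt long the share was 57.7% (56.9 to 58.5%) against 49.3%, whereas in those of up to 5000 nt it was 50.9% (49.6 to 52.1%) against 49.6%, so that the interval contains the eligible share and no excess was detectable there. Short introns hold only the nearer part of the distance range, where the gap between the sides was narrower. Over introns of all lengths, the upstream share from 501 to 1000 nt was 54.1% (52.8 to 55.4%). Short and long introns were not compared at equal distance, so the parts of intron length and distance were not tested. Beside constitutive exons, which every one of at least 2 spanning transcripts uses, the upstream share was 50.5% (49.5 to 51.6%) but the eligible share was 44.5%. Beside exons that are only ever the first or last of a transcript, 73.5% (72.2 to 74.7%) of 4541 members lay on the upstream side, where 68.1% of the eligible intron was. Clusters of 5 nt or less showed it as well, at 55.0% (53.5 to 56.4%), as did the members in the top 10% of all counts, at 55.9% (53.5 to 58.3%).

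Cassette exons, which at least 1 spanning coding transcript skips, were the nearest exon for 2533 members in 995 genes. This was 12.9% of the members (Wilson 95% interval 12.5 to 13.4%), where 10.7% of the eligible intron lay beside such exons with genes weighted by their members. Constitutive exons had the opposite relation, with 42.4% (41.7 to 43.1%) of members against 45.1% of eligible intron. Pooled over genes, there were 121.6 members per Mb beside cassette exons and 75.3 beside constitutive ones. Exons that are only ever the first or last of a transcript had 112.1 per Mb, so a raised density was not particular to cassette exons. Beside them lay 23.2% (22.6 to 23.8%) of members against 21.8% of eligible intron. The share beside cassette exons was 15.5% (13.9 to 17.3%) among members in the top 10% of counts, with 11.1% of eligible intron in their genes. When each intron was counted once, it was 10.7% (10.1 to 11.4%) against 9.67%, a smaller difference.

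Within genes, intron rank and intron length of the members were close to those of the eligible intron. First introns held 26.6% of the members (Wilson 95% interval 26.0 to 27.3%), and 27.1% of the eligible intron lay there when genes were weighted by their members. Pooled over genes the densities did differ, with 112.8 members per Mb in first introns of transcripts with several introns and 71.5 in those ranked sixth or later. In the top 10% of counts first introns held 22.1% (20.2 to 24.2%) against 27.4% of eligible intron, and with each intron counted once 23.1% (22.3 to 23.9%) against 25.2%, so that in both cases the share was below the eligible one. Introns ranked sixth or later, apart from the last, held 32.8% (32.1 to 33.5%) against 31.1%, the largest difference among the rank classes. The median length of an intron with a member, counted once for each member, was 8527 nt (quartiles 4255 and 18816 nt). That value is the length of a single intron, the first of Acot12, which alone held 91 members. Over the eligible intron itself, weighted by bases, the median length was 10219 nt. Introns over 50000 nt held 8.15% (7.77 to 8.54%) of members against 7.45%, and those of up to 2000 nt held 4.80% (4.51 to 5.11%) against 5.21%. Pooled over genes, these classes had 58.6 and 103.6 members per Mb.

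**Figure D2:**
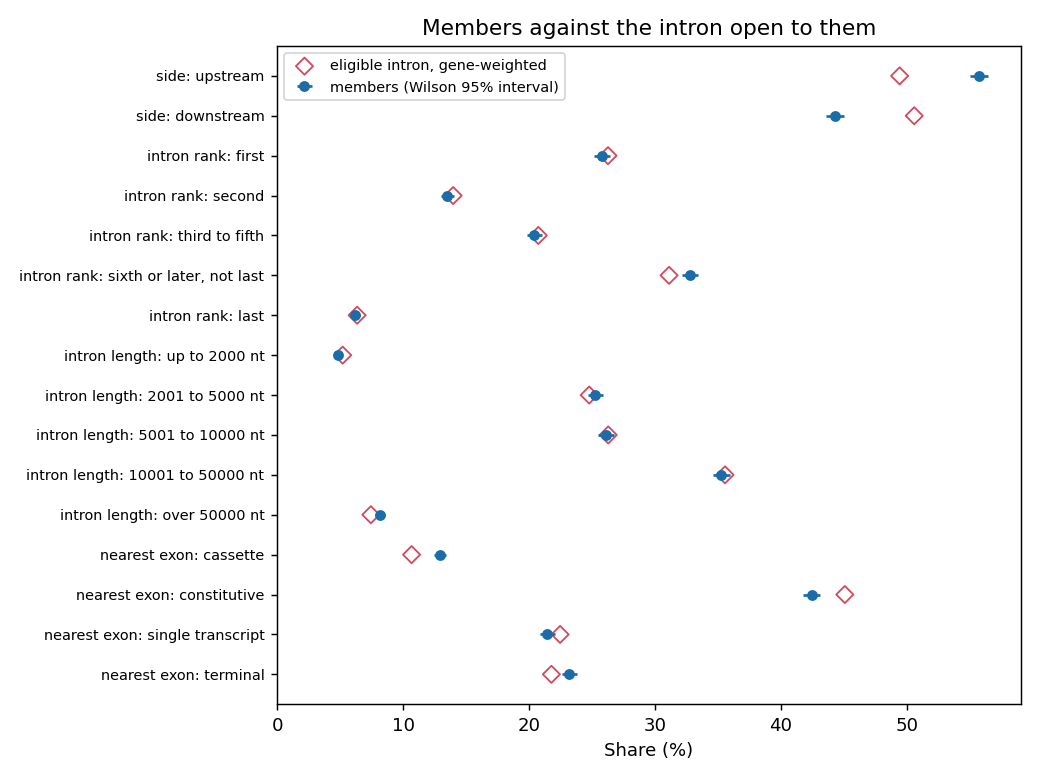
Share of the members by side, intron rank, intron length and type of the nearest exon (filled points, with Wilson 95% intervals), beside the share of eligible intron of that kind with genes weighted by their members (open diamonds). Rank classes leave out transcripts with a single intron. The points and diamonds are farthest apart for the side, 55.7% against 49.4% upstream, and lie close together for rank and length.

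In their counts the members were close to the clusters beside exons and slightly above those deep in introns. Their median was 17 counts (quartiles 13 and 24, range 10 to 10065). Clusters within 500 nt had the same median and quartiles, and clusters beyond 5000 nt had a median of 16 with quartiles 12 and 23. In the top 10% of all clusters, which began at 39 counts, were 8.46% of the members (Wilson 95% interval 8.08 to 8.86%), 8.98% (8.46 to 9.53%) of the clusters within 500 nt and 6.37% (5.99 to 6.76%) of those beyond 5000 nt. The median width was 23 nt (quartiles 6 and 65 nt).

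Some members had close neighbours and many did not. Another cluster midpoint on the strand lay within 200 nt for 19.5% of them and within 1000 nt for 50.7%, and the median distance to the nearest was 971.5 nt. The 19586 members fell into 5121 genes, or 59.8% of the 8567 coding genes that had a cluster and intron in this range. Of these genes 2187 (42.7%) had 1 member and the median was 2, while 385 genes with 10 or more held 39.7% of all members. By intron, 6544 of 9786 introns (66.9%) had 1 member. At the other end, 188 introns with 10 or more held 18.3% of the members. A cluster within 500 nt of an exon was also present in 21.9% of the introns with members, and those introns held 39.4% of the members.

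Sorbs2, which encodes an adaptor protein of actin-linked adhesion sites, had the most members, 255 in 16 introns, with 10030 counts. Next came Rbpms, an RNA-binding protein gene, with 107 members, and Fndc3b, which encodes a membrane protein with fibronectin type III domains, with 105. Gclc, the catalytic subunit of the rate-limiting enzyme of glutathione synthesis, had 103 members in only 17.0 kb of eligible intron, or 6.06 per kb, where the median over genes with members was 0.111 per kb. Acot12, a cytosolic acetyl-CoA thioesterase, had 95. The other genes of the first 10 were the focal adhesion genes Tns1 (86 members) and Lims2 (76), Esyt2 (73), which tethers the endoplasmic reticulum to the plasma membrane, Cabin1 (64), a calcineurin-binding protein, and Gc (58), the vitamin D-binding protein of plasma. These 10 genes held 5.22% of all members. In each of these 10 genes the summed count came from many clusters, and the highest gave 4.55 to 18.6% of it.

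By summed count the order was different, because some genes held single clusters of extreme height. Cdk8, the kinase of the Mediator complex, ranked first with 20567 counts in 12 members, and 48.9% of these came from its highest member. Map3k13, a kinase at the head of a MAP kinase cascade, followed with 11753 counts in 36 members, all of them in a single intron and all nearest to its upstream exon. Il31ra, a cytokine receptor subunit, had 4724 counts, of which 96.9% came from 1 of its 2 members. Zfp865, a zinc finger gene, had 40 members and 3211 counts in 5.5 kb of eligible intron, 7.27 members per kb.

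**Figure D3:**
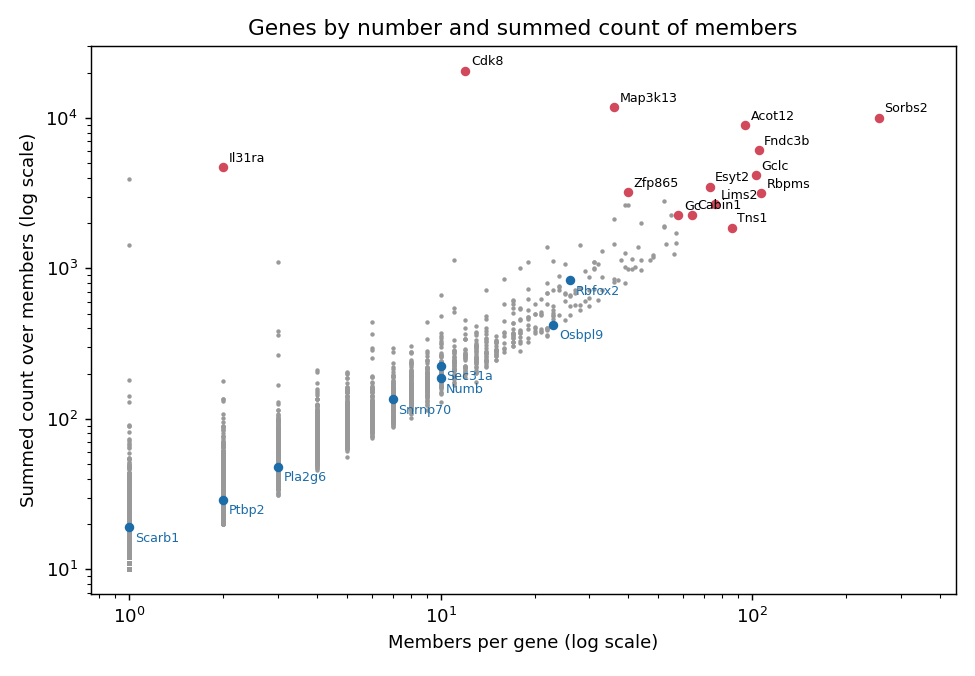
Summed count over members against the number of members for the 5121 genes that hold any, both on log scales. The genes highest by either measure that hold 2 or more members are in red and Rbfox2 with the 7 target genes named in the study in blue. Cdk8 and Il31ra lie far above genes with as many members, and Sorbs2 stands alone at 255 members.

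None of the 10 members with the highest counts had an annotated gene on the other strand. Cdk8 had 4 of them, at 10065, 5214, 2724 and 2036 counts, which all lay within intron 2 between 1419 and 1665 nt from the constitutive exon upstream (chromosome 5, 146259505 to 146259580). The highest was at chr5:146261231-146261259 on the plus strand. Map3k13 had 2 members in intron 2, at 4044 counts (chr16:21797029-21797108, 1094 nt from the upstream exon) and 2737 counts. The Il31ra member of 4575 counts lay at chr13:112578246-112578352 on the minus strand in intron 1. Acot12 had 1 of 1657 counts in intron 1, 2008 nt before the exon downstream. Another was in Cd44, the hyaluronan receptor, with 1436 counts at chr2:102829355-102829474 on the minus strand, 805 nt before a constitutive exon of 69 nt. The nearest exon was upstream for 8 of the 10.

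The introns with the most members differed in where their members lay. Intron 2 of Sorbs2 (77211 nt) held 119 members among 234 clusters, and its highest, of 794 counts, lay 5552 nt from the intron's start and 2412 nt from an exon that other coding transcripts use there. Of the members 108 lay before the middle of the intron, but so did 73.9% of its eligible bases, since the exons of other transcripts stand there. Intron 12 of Fndc3b (17890 nt) held 84, of which 73 lay before its middle, where 4500 of its 9000 eligible nt were, with a median spacing of 39.0 nt and a highest count of 351 at 1899 nt from the start. Acot12 had 91 in intron 1 (8527 nt), with a median spacing of 59.5 nt and no gap over 248 nt between neighbours, so that members covered the intron from 528 to 7995 nt. Its counts were highest past the middle, where 62 members and 3764 of 7527 eligible nt lay, with 1657 counts at 6520 nt from the start. In intron 13 of Esyt2 (8797 nt) were 67 members, 40 of them before the middle (50.7% of eligible bases), and the highest held 427 counts. Intron 1 of Lims2 (10189 nt) also held 67, of which 54 lay before the middle (58.3% of eligible bases), and the highest held 294 counts.

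**Figure D4:**
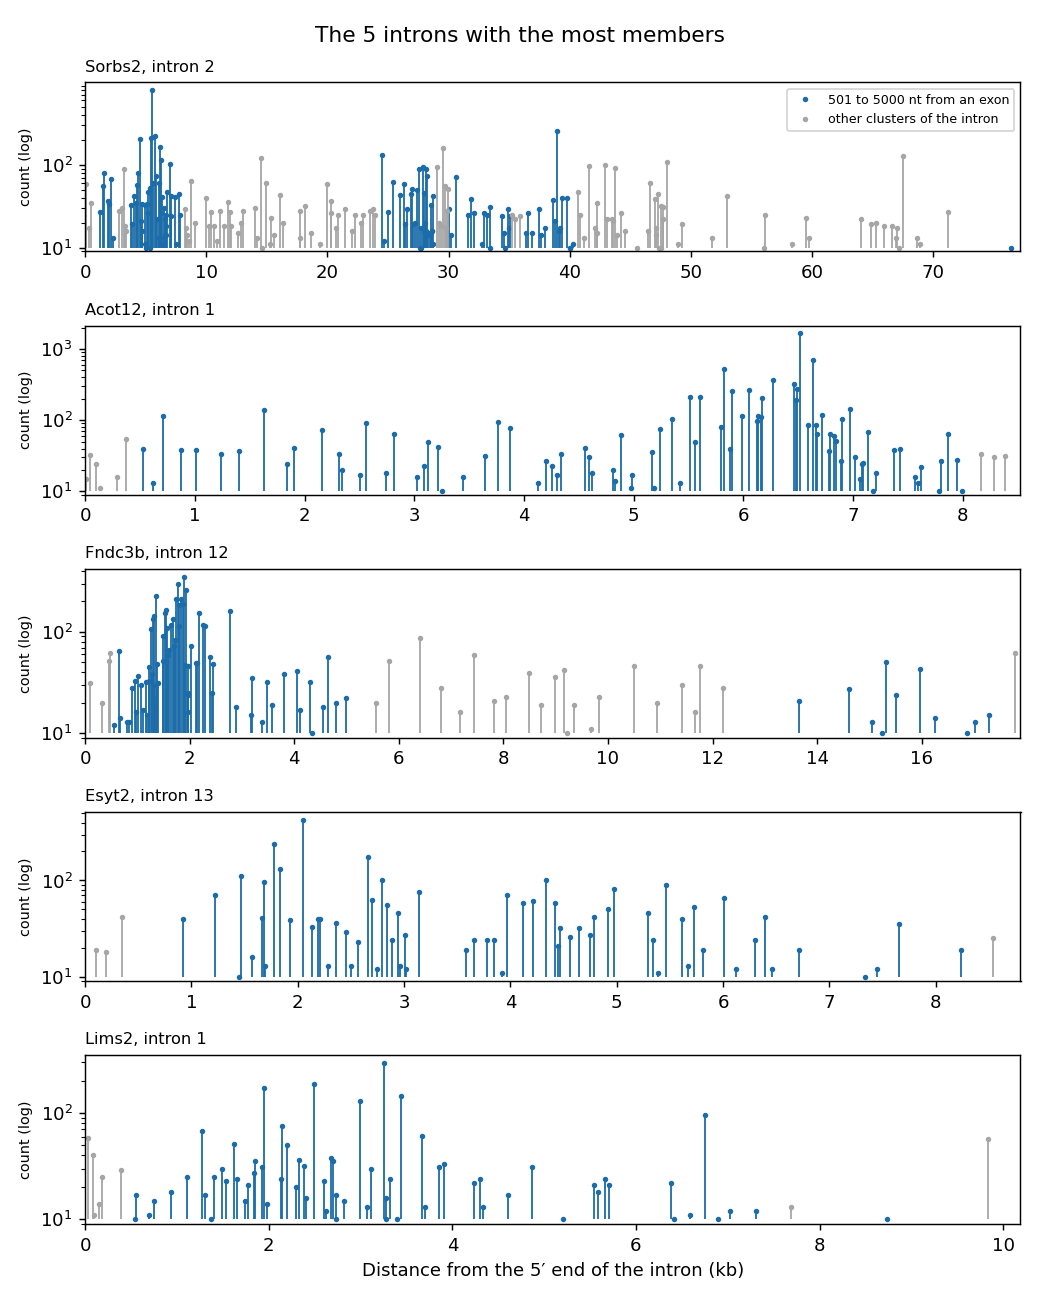
Count of each cluster (log scale, from the minimum of 10) against its distance from the 5′ end of the intron in kb, for the 5 introns with the most members. Blue marks members and grey the other clusters of the intron. In Fndc3b the tall members crowd at about 1 to 2 kb, and in Acot12 the members run along the whole intron but the tallest, of 1657 and 692 counts, lie at 6520 and 6632 nt.

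All 7 target genes that the study named held members, as did Rbfox2 itself. These genes were chosen by the study in view of these data, so their having members is no independent observation. Together they had 82 members, 43 of them nearest to the upstream exon. Rbfox2 had 26 members and 832 counts. The highest, with 244 counts, lay in intron 10, its midpoint 580 nt before a cassette exon of 40 nt, and the same intron held 8 further members of 10 to 28 counts. This highest member and several others of the intron lay opposite an annotated gene, as did 4.66% of all members. A member of 129 counts lay in intron 6, 1152 nt before a constitutive exon of 61 nt. Cassette exons were the nearest for 15 of the 26, several of them before the same 40-nt exon. The share of eligible intron beside cassette exons in Rbfox2 itself was not computed.

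Among the targets, Osbpl9, an oxysterol-binding protein family gene, had 23 members with 10 to 49 counts. Of these, 6 lay in intron 2 between 597 and 2167 nt downstream of a cassette exon of 51 nt, led by the member of 49 counts. The 39-nt cassette exon (109091661 to 109091699) had a member of 44 counts 2242 nt upstream and a member of 11 counts 841 nt downstream. Farther upstream in the same intron, members of 12 to 24 counts lay nearer to a constitutive exon of 51 nt. Sec31a, a subunit of the COPII coat of secretory vesicles, had 10 members, and 6 were in intron 22, where 3 of 12 to 29 counts lay 1290 to 1809 nt before a cassette exon of 39 nt and the other 3, of 10 to 41 counts, lay 728 to 1433 nt after the exon upstream. Numb, an endocytic adaptor that restrains Notch signalling, had 10. Its 33-nt cassette exon was the nearest for 4 members before it, at 1192 to 1752 nt with 11 to 51 counts. It was also the nearest for 2 after it, at 645 and 1705 nt with 13 and 16 counts. All of these lay opposite an annotated gene. Here the members upstream of the short exon included the highest of the gene.

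The remaining targets had 1 to 7 members each, with at most 25 counts. Snrnp70, the U1 snRNP protein, had 7 with 11 to 25 counts. Pla2g6, a calcium-independent phospholipase, had 3 in intron 9, of 25, 12 and 11 counts, between constitutive exons. Ptbp2, a splicing repressor, had 2, of which 1 with 15 counts lay 560 nt before a 34-nt exon. Scarb1, the gene of the HDL receptor SR-BI, held 1 member of 19 counts (chr5:125282300-125282368, minus strand) in intron 11, with its midpoint 1101 nt before the 129-nt cassette exon. Its count exceeded that of 57.0% of all clusters.

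**Figure D5:**
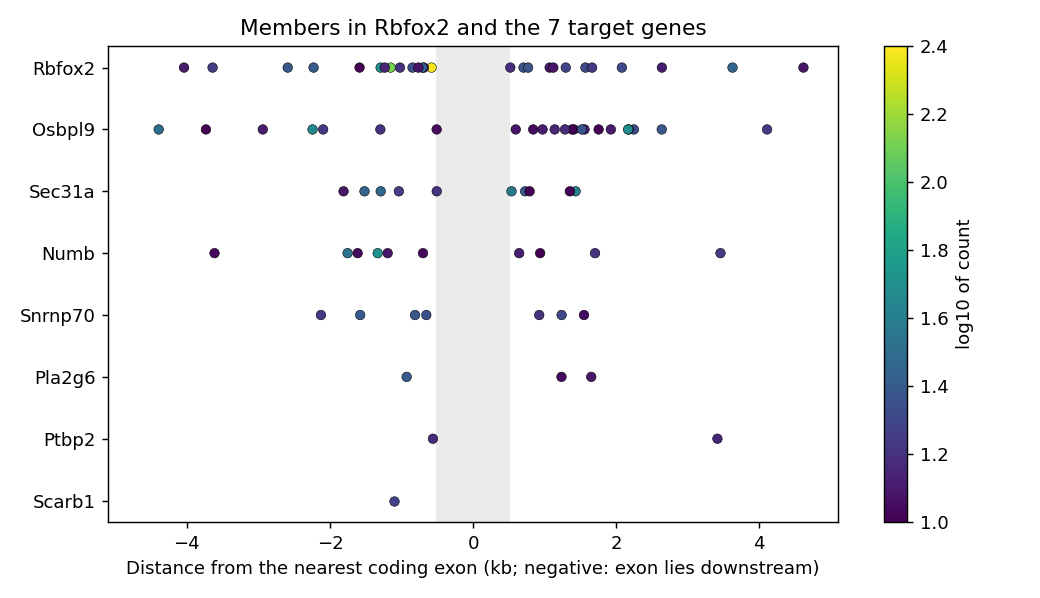
Distance of each member from the nearest coding exon in kb for Rbfox2 and the 7 target genes, negative where that exon lies downstream of the member, coloured by log10 of the count. The grey band within 0.5 kb holds no members by definition. The brightest point is the Rbfox2 member of 244 counts, 580 nt before its exon.

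Gene groups differed in how many of their genes held members, beside a background of 59.8% over all coding genes with a cluster and eligible intron. The gene lists were written with earlier results of these data known, and some hold genes that stood out in them. The shares and medians of the groups are therefore no independent observation. Of the cell junction and actin-linked genes, 40 of 41 (97.6%) had members, with a median of 11 a gene against 2 over all genes with members. Sorbs2 (10030 counts), Epb41l5 (2633), Tns1 (1861) and Epb41 (1719) led the group, Epb41l5 and Epb41 encoding cytoskeletal linkers of the protein 4.1 family. These genes also had long introns, with a median of 63.1 kb of eligible intron against 16.2 kb over all genes. Per kb their median was 0.164 members, against 0.111 over all genes with members. Of the insulin and growth factor signalling genes, 26 of 29 (89.7%) had members, led by Map3k13 (11753 counts), the EGF receptor gene Egfr (1001), Map3k5 (609) and the receptor phosphatase Ptprf (491). Their median was 0.173 per kb, and they too offered more eligible intron, with a median of 30.8 kb.

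Of the splicing factors and RNA-binding proteins, a list that includes Rbfox2, 49 had a cluster and eligible intron. Members were held by 37 (75.5%), at a median of 4 a gene and 0.364 per kb. After Rbfox2 (832 counts) came Luc7l2 (379), a U1 snRNP-associated protein, Taf15 (372), an RNA-binding protein of the FET family, and Mbnl1 (346), a muscleblind splicing regulator. Of the lipid and lipoprotein genes, 24 of 36 (66.7%) held members, with 0.132 per kb and a median of 22.1 kb of eligible intron. Insig2, which holds SREBP processing back in the endoplasmic reticulum, led with 23 members and 532 counts, ahead of Osbpl9 (423), the bile acid receptor gene Nr1h4 (238) and Sec31a (225). Hepatocyte markers held members in 4 of 9 genes, namely Cps1 (284 counts), Hnf4a (103), Ttr (52) and Apob (13), and offered little intron at this distance, with a median of 4.91 kb. The medians per kb of all groups cover only the genes that held members. For the hepatocyte markers this was 0.234 per kb over 4 genes, and the markers without a member are not in it. The markers of other cells held 3 members in all, in Adgre1 (15 counts), Stab2 (12) and Reln (31). Abundance of the transcripts was not measured here, so neither these differences nor those between genes can be told apart from differences in expression.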

How the data were processed

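The eiCLIP libraries were processed by the authors. Per the labels and the study's methods, reads were trimmed with cutadapt, aligned with STAR 2.4.2a to GRCm38 keeping unique alignments, freed of PCR duplicates by position and random barcode, and pooled over 3 libraries before clusters were called with Paraclu. The deposited value of each cluster is a whole-number count, not normalised, read here from its values as the pooled number of cDNA starts. Depth per library is unknown. No input library was analysed here.

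Clusters were placed by midpoint with GENCODE M21 (coordinates are 1-based). The study named an earlier release. Eligible intron is every base that the rule admits in coding genes with a cluster. Intron rank came from the coding transcript of best APPRIS level that has an intron at the position. Where no principal transcript had one, another coding transcript was used, so ranks within a gene can come from different transcripts. Sequences came from GENCODE M21 transcripts and RefSeq promoter windows (GRCm38.p6), which had 0 conflicting bases. The placing was tested on simulated data. Shares have Wilson and densities exact Poisson intervals (95%), from Python 3.11.15 with scipy 1.17.1.

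Named were Rbfox2 and the 7 targets, the 10 highest members, the 10 genes with most members and with the highest summed counts, the 5 fullest introns, and 4 genes of each list. Members and lists were chosen with earlier results of these data known. Of 87021 clusters, 28 lay on sequences outside the annotation. An item that the naming rule selected is not reported here.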

Additional observations from a re-analysis of the deposited data

How the results depend on the processing

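No paired analysis was possible because the 3 libraries form 1 group and reached the list as a pool, so no library could be left out either. The share nearest to the upstream exon stayed within its interval under all 9 alternatives. With counts at or above 17, 9978 members remained (43.95 per Mb, median count 24), with 25.9% in first introns and 13.6% beside cassette exons. In the top 10% of counts there were 1657 (7.30 per Mb, median count 54), with 22.1% in first introns, 15.5% beside cassette exons and a median intron of 8335 nt. Distances from exons of any transcript gave 82.7 per Mb, 27.8% in first introns, 11.4% beside cassette exons and 9245 nt. Merging within 200 nt gave 73.1 per Mb, 12.3% beside cassette exons and 8659 nt. The density was 66.8 per Mb without clusters of 5 nt or less, 80.5 without overlapping genes and 54.9 over all coding genes. Without overlapping genes the members were removed but the full 227.1 Mb of eligible intron was kept, so that value is lower by construction. The transcript with most exons put 24.8% in first introns. Chosen after the data were seen, leaving out the 10 genes with the most members gave 81.8 per Mb, a median intron of 8302 nt and a median count of 16. Here too the intron of the removed genes stayed in the 227.1 Mb. Counting each intron once, also chosen after the data were seen, gave 23.1% in first introns, 10.7% beside cassette exons and 6792 nt. Without overlapping genes, GCATG was in 4 of 12 windows (33.3%, Wilson 95% interval 13.8 to 60.9%), and TGCATG in 13.0%. The causes were not tested. Motif shares after merging were not computed. Motif values rest on the 131 members with sequence.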
